A study of Mus musculus with 18 samples.

Results

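The genes described here are 32 markers of lymphoid lineages, read in dendritic cell and myeloid sorts of the mouse: 7 of B cells, 5 of plasma cells, 11 of T cells and 9 of natural killer (NK) cells. They were chosen by name from known lineage markers, with earlier results of these data known. Each was read from the probe set that carried its symbol alone, on a log2 scale. Of the 32, 30 had such a probe set, out of 19752 genes with one. The others, Lck and Tcf7, had no probe set with their symbol alone, so their expression was not read and they enter only the promoter search. After a filter on low values, which asked that a gene lie above the 30th percentile of the array on at least 2 arrays, 24 members were tested among 15365 genes. The 6 that did not pass were Cr2, Cd3d, Ncr1, Klrb1c, Gzma and Eomes, and their levels are given without a test.

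RNA came from 18 Affymetrix gene arrays in 8 groups, 9 arrays per genotype. Mice of both genotypes carried the BRAFV600E(CA-flox) allele, an activating mutant of the kinase BRAF that is switched on by Cre recombinase. Controls (WT) were littermates negative for CD11c-Cre, and mutants (BRAF) were positive for it, so that recombination occurs where the integrin CD11c, carried by dendritic cells, is or has been expressed. Bone marrow derived dendritic cells (BMDC) were grown from femurs of mice aged 5 weeks, left untreated and sorted as live CD11c+CD11b+ cells, with 3 arrays per genotype. CD11b+ cells of liver and lung and CD103+ cells of lung came from unmanipulated mice aged 14 weeks, with 2 arrays per genotype each. The labels state no gate against lymphoid cells for the organ sorts. They number the replicates without saying that these were separate animals or cultures, so p-values reflect differences among these arrays that may be technical only.

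B cells sense antigen through a surface immunoglobulin whose signal passes through Cd79a and Cd79b, and plasma cells, their secretory descendants, join polymeric antibody with Jchain and receive survival signals through Tnfrsf17 (BCMA). T cells signal through the CD3 chains and Cd247, with Lat as the scaffold behind them, and NK cells kill with perforin (Prf1) and granzymes (Gzma, Gzmb), as cytotoxic T cells do. Several of these genes are not exclusive to lymphocytes. Xbp1 and Prdm1 act in secretory and activated cells of many kinds, Tbx21 and Klrk1 are also found on other leukocytes, and plasmacytoid dendritic cells share transcripts with B and plasma cells. In bulk sorts the level of a lineage gene cannot tell apart fewer cells of a type from less RNA per cell.

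Promoter windows are shown for 4 members that recur in the results, picked after their values were seen: the plasma cell genes Jchain and Tnfrsf17, which differed between the liver genotypes, and the cytotoxic genes Nkg7 and Gzmb, which differed between the WT lung CD103+ arrays. Each holds 250 bases before and 50 after the RefSeq start in build GRCm38.p6, read 5′ to 3′ along the gene's own strand, and capitals mark the letters of a motif match. Jchain lies at chr5:88527848-88528147 on the minus strand, and its capitals are an E-box (CAGGTG, here on the opposite strand) that begins 6 bases after the start. Tnfrsf17 lies at chr16:11313559-11313858 on the plus strand, with an interferon regulatory factor repeat (GAAA, any 2 bases and GAAA, here on the opposite strand) at -101. Nkg7 lies at chr7:43436888-43437187 on the plus strand, with a T-box element (AGGTGTGA) at -14. Gzmb lies at chr14:56262285-56262584 on the minus strand, with a RUNX match (TGTGGTT) at -34.
Jchain: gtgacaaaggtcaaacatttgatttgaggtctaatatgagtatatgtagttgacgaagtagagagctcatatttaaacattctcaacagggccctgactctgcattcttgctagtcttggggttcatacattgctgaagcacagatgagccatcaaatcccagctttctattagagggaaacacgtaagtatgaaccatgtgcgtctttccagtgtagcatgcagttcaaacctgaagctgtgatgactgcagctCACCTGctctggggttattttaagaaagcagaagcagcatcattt
Tnfrsf17: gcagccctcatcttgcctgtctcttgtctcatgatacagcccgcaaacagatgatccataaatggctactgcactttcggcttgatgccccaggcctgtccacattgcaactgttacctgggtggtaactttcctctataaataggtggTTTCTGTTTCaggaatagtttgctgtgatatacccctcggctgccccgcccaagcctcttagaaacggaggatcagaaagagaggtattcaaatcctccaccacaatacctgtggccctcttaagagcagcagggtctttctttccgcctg
Nkg7: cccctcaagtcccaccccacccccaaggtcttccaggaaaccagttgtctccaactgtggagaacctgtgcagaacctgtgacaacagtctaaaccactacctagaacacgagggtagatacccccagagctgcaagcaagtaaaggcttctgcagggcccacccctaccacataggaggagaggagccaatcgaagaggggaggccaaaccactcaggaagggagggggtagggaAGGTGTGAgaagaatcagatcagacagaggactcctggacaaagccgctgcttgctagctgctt
Gzmb: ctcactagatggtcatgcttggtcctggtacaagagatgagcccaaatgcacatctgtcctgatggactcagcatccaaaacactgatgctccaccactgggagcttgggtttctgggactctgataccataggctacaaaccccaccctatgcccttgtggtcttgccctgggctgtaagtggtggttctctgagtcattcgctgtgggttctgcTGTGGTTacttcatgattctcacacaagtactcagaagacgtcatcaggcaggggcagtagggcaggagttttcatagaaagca
A window was held for 26 of the 32 members, and the motifs were searched on both strands in all 32851 windows of the same length. These 26 members had 31 windows. A member counted when any of its windows matched, while the share over all is of single windows, so the 2 are unlike units. The RUNX letters stood in windows of 5 members (Gzma, Gzmb, Klrk1, Lck and Ncr1) and in 5.27% of all windows. The T-box element stood in 1 member, Nkg7, and in 1.28% of all windows, and the interferon regulatory factor repeat in 3 members (Eomes, Gzma and Tnfrsf17) and 3.44% of all windows. The E-box, which can share all but its first letter with a T-box match, stood in windows of 16 members and in 20.2% of all windows. The octamer ATGCAAAT and the EBF palindrome (TCCC, any 2 bases and GGGA), both searched because B cell promoters can carry them, stood in no member window and in 1.74% and 0.904% of all windows. These matches describe letters in a window and do not show binding.

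The genes of the sorted integrins followed the sort labels, while some other markers did so only in part. Itgax, which encodes CD11c, read 10.66 to 12.18 log2 on all 18 arrays, and Ptprc, the pan-leukocyte CD45, read 10.58 to 11.98. Itgae, which encodes CD103, read 10.60 to 12.18 on the 4 CD103+ arrays and 5.74 to 7.65 elsewhere, and Xcr1, a receptor of type 1 dendritic cells, read 12.22 to 12.58 against 5.41 to 7.62. Itgam, which encodes CD11b, read 6.87 and 6.90 on the WT and 8.39 and 8.21 on the BRAF CD103+ arrays, and 9.32 to 11.92 elsewhere. Csf1r, a macrophage and monocyte marker, read 8.55 and 7.79 on the WT and 10.03 and 9.78 on the BRAF CD103+ arrays. Elsewhere it read 9.03 to 11.88. Sirpa, a type 2 dendritic cell marker, read 9.92 and 6.70 in WT and 11.10 and 10.43 in BRAF CD103+ cells. Its other arrays read 10.43 to 12.07. Flt3, a dendritic cell receptor, read 5.55 to 6.02 in BMDC and 7.71 to 11.34 on organ arrays. Braf read 8.09 to 9.22 over all arrays; a wild-type and a mutant transcript cannot be told apart by its probe set, so it does not check the genotype. BRAF BMDC replicate 2 and WT liver replicate 3 stood apart by a narrow spread, with interquartile ranges of 1.9 and 1.92 log2 against 2.41 to 2.99 on the others. On these 2 arrays olfactory and vomeronasal receptor genes, which leukocytes are not known to use, read 0.59 and 0.58 above their WT BMDC mean, so that low genes such as most members read high there. WT lung CD103+ replicate 1 stood apart by high T and NK cell genes. Several results that rest on these 3 arrays are given with and without them.

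To place the low members, each was set against the 95th percentile of the same receptor genes on its own array, which lay between 5.88 and 6.69 log2. Cd79b, Xbp1, Cd5, Bcl11b, Prf1 and Tbx21 exceeded it on all 18 arrays, while Cr2, Cd3d, Cd247 and Ncr1 exceeded it on none. Between these ends lay Klrk1 and Pax5 (12 arrays each), Jchain and Nkg7 (9 each), Ms4a1 (4) and Gzmb (2). Probe sets differ in brightness, so this ranks readings against background and not the members against one another.

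**Figure D1:**
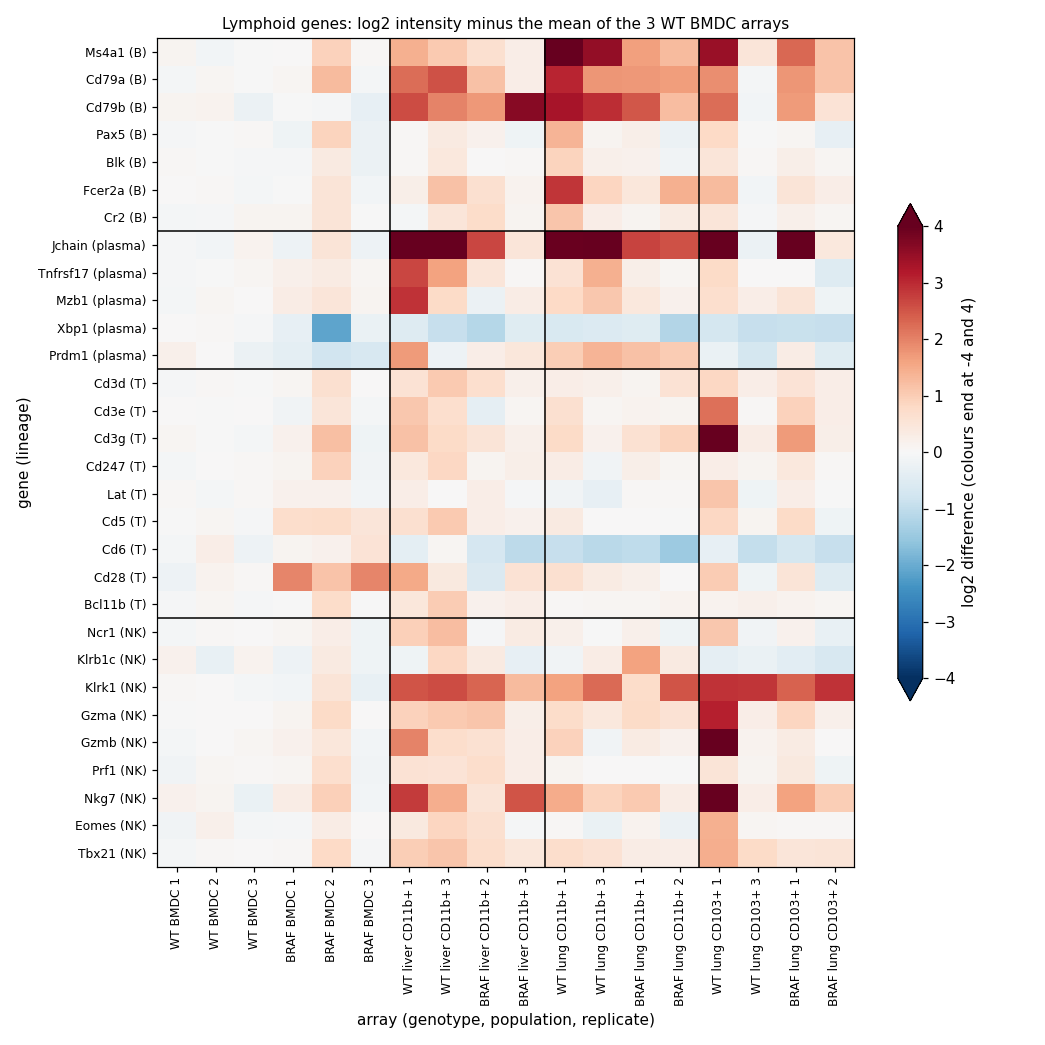
Log2 intensity of the 30 measured members (rows, by lineage) on the 18 arrays (columns, by group), shown as the difference from each gene's mean on the 3 WT BMDC arrays. Jchain stands out on the WT liver arrays, where it reads 10.16 and 12.15 log2 against 4.37 to 4.63 in WT BMDC, and the T and NK genes on WT lung CD103+ replicate 1.

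B, plasma and NK cell genes read higher in the organ sorts than in BMDC. The contrast took the mean of the 3 organ populations minus BMDC, with both genotypes weighted equally. Of the 24 tested members, 7 were higher in the organs (Ms4a1, Cd79a, Cd79b, Jchain, Prdm1, Klrk1 and Tbx21) and 1, Cd6, was lower, by limma at an adjusted p under 0.05 over all genes. The same contrast called 18.8% of all genes tested, 7.11% higher and 11.6% lower. Over all 30 measured members the median difference was 0.39 log2, with 27 above 0, against a median of 0.00 over all genes. By lineage the medians were 0.75 for B, 0.56 for NK, 0.51 for plasma and 0.09 for T cell genes, and all 7 B and all 9 NK genes were above 0. Each of these 8 kept its call in all 29 alternative fits except Prdm1, whose difference of 0.77 ± 0.22 (adjusted p = 0.0228) passed in 25 and gave 0.48 (adjusted p = 0.36) over WT arrays alone.

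**Figure D2:**
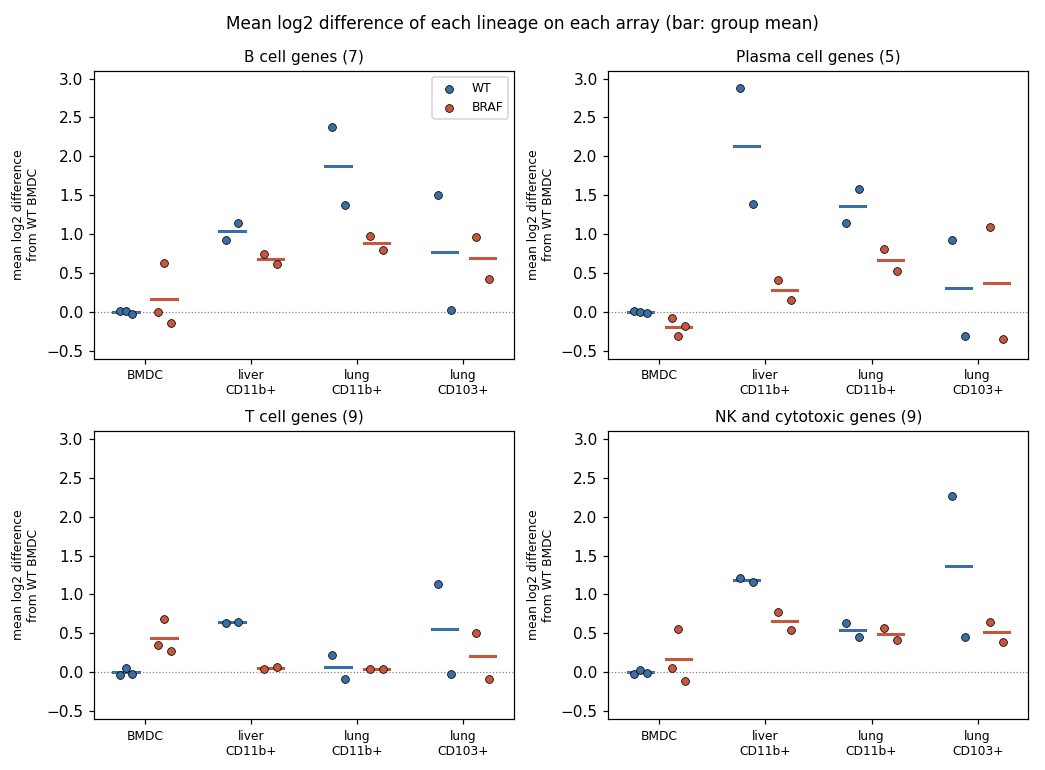
Lineage index per array, the mean over a lineage's measured members of the log2 difference from WT BMDC (y axis, log2), for B, plasma, T and NK cell genes in the 8 groups (points are arrays, bars group means). WT liver replicate 1 has the highest plasma index (2.88), WT lung CD11b+ replicate 1 the highest B index (2.38) and WT lung CD103+ replicate 1 the highest T and NK indices (1.13 and 2.26).

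The index of each lineage, the mean difference of its members from WT BMDC, differed between arrays of one group as well as between groups. The B index was 1.38 and 2.38 on the WT lung CD11b+ arrays and 0.98 and 0.80 on the BRAF ones, so the genotypes did not overlap there. The plasma index was 1.39 and 2.88 in WT liver and 0.41 and 0.15 in BRAF liver, again without overlap. In lung CD103+ cells the NK index was 2.26 and 0.46 in WT and 0.65 and 0.39 in BRAF, so the WT arrays lay on both sides of the BRAF array at 0.65. On BRAF BMDC replicate 2, one of the arrays of narrow spread, the B, T and NK indices were 0.63, 0.69 and 0.56, the highest among BMDC arrays.

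Among B cell genes, Ms4a1, which encodes the surface antigen CD20, was near background in BMDC. It read 4.37, 4.17 and 4.26 log2 in WT BMDC and 4.29, 5.19 and 4.31 in BRAF BMDC. In lung CD11b+ cells it read 7.77 and 8.33 in WT and 5.91 and 5.53 in BRAF, and in liver 5.32 and 5.68 in WT and 4.91 and 4.54 in BRAF. Both organs thus had WT arrays above all BRAF arrays, while the lung CD103+ arrays overlapped, at 7.72 and 4.76 in WT and 6.56 and 5.40 in BRAF. In lung CD11b+ cells the difference between genotypes was -2.33 ± 0.65 log2 (SE) and did not pass (limma, adjusted p = 0.199). Ms4a1 was higher in the organs than in BMDC by 1.60 ± 0.33 log2 (adjusted p = 0.0026).

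The signalling chains of the B cell receptor were the other B cell genes higher in the organs. Cd79a read 4.33 to 4.51 log2 in WT BMDC, 6.96 and 6.65 in WT liver, 5.59 and 4.67 in BRAF liver, 6.17 and 7.46 in WT lung CD11b+ cells and 6.15 and 6.08 in BRAF lung CD11b+ cells. The liver genotypes did not overlap, while in lung CD11b+ cells the lower WT array and the higher BRAF array lay side by side. Cd79b read 6.53 to 6.90 in WT BMDC, 8.77 and 9.39 in WT liver and 9.72 and 10.08 in WT lung CD11b+ cells. In BRAF it read 8.51 and 10.42 in liver, on both sides of WT, and 9.26 and 8.02 in lung CD11b+ cells, below WT. The organs exceeded BMDC by 1.38 ± 0.28 log2 for Cd79a (adjusted p = 0.00282) and by 2.10 ± 0.34 for Cd79b (adjusted p = 0.000415). Neither gene passed a genotype contrast: the liver difference of Cd79a was -1.67 ± 0.57 (adjusted p = 0.245) and the lung CD11b+ difference of Cd79b was -1.26 ± 0.68 (adjusted p = 0.845).

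The remaining B cell genes were low except on a few arrays. Pax5, the factor that keeps B cell identity, read 6.10 to 6.17 log2 in WT BMDC and reached 7.50 on WT lung CD11b+ replicate 1, 7.03 on BRAF BMDC replicate 2 and 6.94 on WT lung CD103+ replicate 1. Blk, a kinase of the B cell receptor, and Fcer2a, the low-affinity IgE receptor CD23, also had their highest values on WT lung CD11b+ replicate 1, at 6.93 and 8.04. Fcer2a read 6.03 on the other WT lung CD11b+ array and 5.62 and 6.60 on the BRAF arrays, so the genotypes overlapped. Cr2, the complement receptor CD21, read 4.59 to 5.77 over all arrays and exceeded the receptor reference on none. One array, WT lung CD11b+ replicate 1, thus held the highest value of Ms4a1, Pax5, Blk, Fcer2a, Cr2 and Cd79a.

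**Figure D3:**
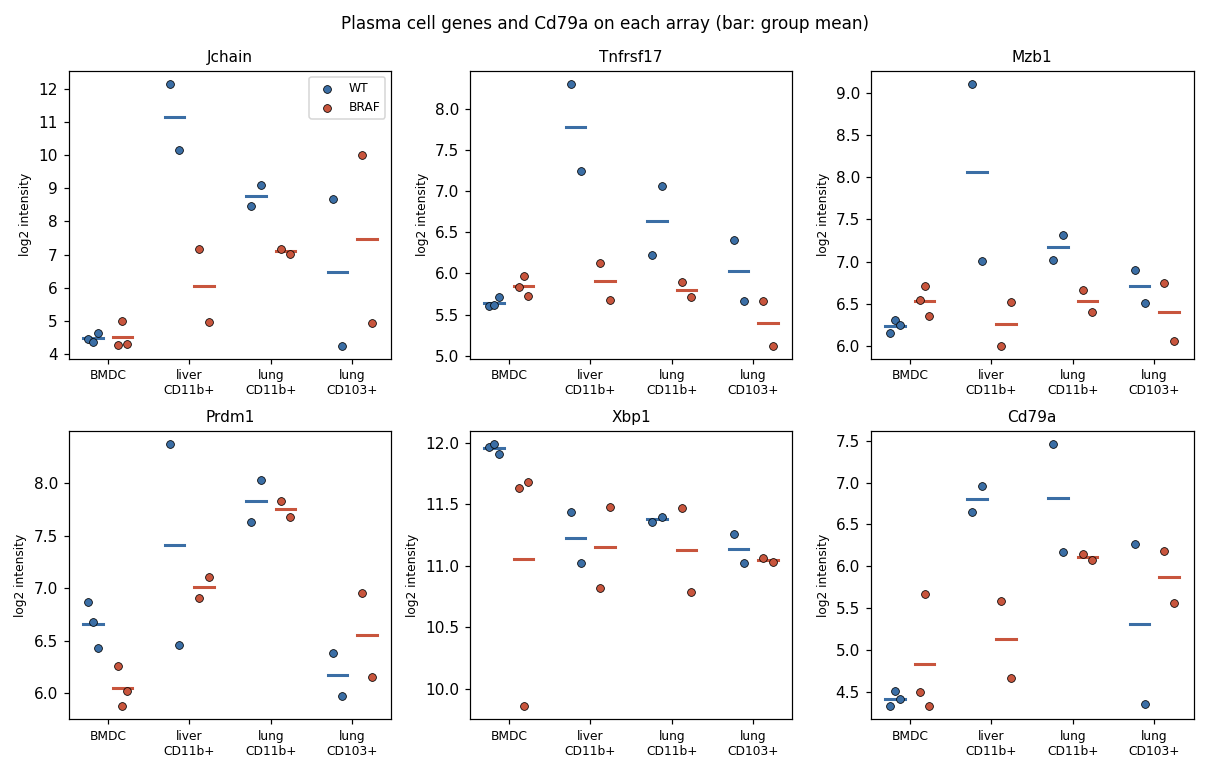
Log2 intensity (y axis) of the 5 plasma cell genes and of Cd79a by group, with 1 point per array and a bar at each group mean. Jchain reads 10.16 and 12.15 in WT liver against 7.16 and 4.96 in BRAF liver, and Tnfrsf17 reads 7.25 and 8.31 against 6.13 and 5.68.

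The plasma cell genes Jchain, Tnfrsf17 and Mzb1 were higher on both WT than on both BRAF arrays in liver and in lung CD11b+ cells. Of all genes, 17% had this order in liver and 20.1% in lung CD11b+ cells. Jchain read 10.16 and 12.15 log2 in WT liver and 7.16 and 4.96 in BRAF liver, and 9.10 and 8.45 in WT against 7.18 and 7.02 in BRAF lung CD11b+ cells. In lung CD103+ cells each genotype had 1 high and 1 low array, at 8.68 and 4.25 in WT and 10.01 and 4.92 in BRAF, and BMDC read 4.27 to 4.99. At -5.10 ± 1.38 log2 in liver, Jchain had the largest difference of any member but missed the threshold (limma, adjusted p = 0.161). It passed in a fit of the liver groups alone (adjusted p = 0.0481), and over the alternatives the adjusted p reached 0.73. Against BMDC the organs were higher by 3.34 ± 0.69 (adjusted p = 0.00286).

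Tnfrsf17, the survival receptor BCMA, was the only member that passed a genotype contrast. It read 7.25 and 8.31 log2 in WT liver against 6.13 and 5.68 in BRAF liver, and 7.06 and 6.22 against 5.89 and 5.71 in lung CD11b+ cells. In lung CD103+ cells WT read 6.41 and 5.66 and BRAF 5.67 and 5.12, which overlap. In BMDC the order was the opposite, with 5.60, 5.62 and 5.71 in WT and 5.84, 5.97 and 5.73 in BRAF. None of these BMDC readings exceeded the receptor reference. Tnfrsf17 fell by 1.88 ± 0.35 log2 in BRAF liver (adjusted p = 0.049) and, as the mean of the 4 populations, by 0.79 ± 0.17 (adjusted p = 0.0396). Both calls lay close to the threshold. In liver 7 of 14 alternatives kept the call (adjusted p 0.0152 to 0.591). It stood without WT liver replicate 3 (-2.41, adjusted p = 0.0324), while leaving out WT liver replicate 1 gave -1.35 with an adjusted p of 0.0885, and leaving out BRAF liver replicate 3 gave -1.65 with one of 0.171. For the mean, 13 of 27 kept it (adjusted p 0.011 to 0.109).

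Mzb1, a chaperone of antibody assembly, read 7.01 and 9.11 log2 in WT liver against 6.0 and 6.52 in BRAF liver. In lung CD11b+ cells it read 7.32 and 7.02 in WT and 6.66 and 6.40 in BRAF, so both populations were without overlap. The 2 liver genotypes differed by -1.80 ± 0.46, short of the threshold (adjusted p = 0.139). Without WT liver replicate 3, an array of narrow spread, it was -2.85 with an adjusted p of 0.00397. Without WT liver replicate 1 it was -0.75 (adjusted p = 0.189). Mzb1 was the middle of the 5 plasma cell genes in liver, so their median was -1.80 with all arrays and -0.75 without WT liver replicate 1; without WT liver replicate 3 it was -2.41. Jchain stayed between -6.20 and -3.99 and Tnfrsf17 between -2.41 and -1.35 in liver over the alternatives.

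The transcription factors Xbp1 and Prdm1 overlapped between the liver genotypes. Xbp1, which drives the unfolded protein response, was high everywhere, at 11.91 to 11.99 log2 in WT BMDC and 10.79 to 11.48 on the organ arrays, and 9.86 on BRAF BMDC replicate 2 was its lowest value. Its BMDC difference of -0.90 ± 0.37 (adjusted p = 0.677) includes that array, one of narrow spread; the other BRAF BMDC arrays read 11.63 and 11.68. Prdm1, which encodes the repressor Blimp-1, read 6.46 and 8.37 in WT liver and 6.91 and 7.11 in BRAF liver. Its highest value, 8.37, was on WT liver replicate 1, the array on which Jchain, Tnfrsf17 and Mzb1 were also highest. It read 8.03 and 7.63 in WT and 7.83 and 7.68 in BRAF lung CD11b+ cells, and 6.38 and 5.97 in WT and 6.95 and 6.16 in BRAF lung CD103+ cells. In BMDC it read 6.87, 6.68 and 6.43 in WT and 6.26, 5.88 and 6.02 in BRAF, without overlap (-0.61 ± 0.36, adjusted p = 0.737).

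Of the 9 measured T cell genes, Cd5 and Bcl11b exceeded the receptor reference on all 18 arrays, Cd3e and Cd6 on 17, Lat on 15, Cd28 on 6, Cd3g on 1 and Cd3d and Cd247 on none. Cd3e, Cd3g and Lat had their highest values on WT lung CD103+ replicate 1. Cd3e, a chain of the CD3 complex, read 8.62 log2 on that array and 6.46 on the other WT array, against 7.31 and 6.67 in BRAF lung CD103+ cells. Cd3g, its partner chain, read 8.68 and 4.90 in WT and 6.32 and 4.83 in BRAF. Lat, the scaffold of T cell receptor signalling, read 7.33 and 6.06 in WT and 6.49 and 6.19 in BRAF. In each case 1 WT array lay above and the other below at least 1 BRAF array, and the genotype differences did not pass; that of Cd3g was -1.21 ± 0.82 (adjusted p = 1). Cd3d and Cd247, further chains of the complex, exceeded the receptor reference on no array, and Cd3d peaked at 5.91 on WT liver replicate 3.

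In liver the T cell genes read lower in BRAF, and none of the tested ones passed. All 9 measured ones were below 0 with a median of -0.61, and in 6 (Cd3e, Cd3g, Cd247, Cd5, Cd6 and Bcl11b) both BRAF arrays lay below both WT arrays, as in 17% of all genes. Cd3e read 7.06 and 7.47 log2 in WT liver and 6.04 and 6.47 in BRAF liver (-1.01 ± 0.48, adjusted p = 0.361). Bcl11b, a factor of T cell commitment, read 7.42 and 6.85 against 6.57 and 6.66. Without WT liver replicate 3 and BRAF BMDC replicate 2, the arrays of narrow spread, the T median in liver was -0.42.

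In BMDC, Cd28 and Cd5 were the T cell genes without overlap between genotypes. Both had BRAF above WT, as had 7.19% of all genes without overlap. Cd28, a costimulatory receptor of T cells, read 5.25, 5.59 and 5.51 log2 in WT BMDC and 7.39, 6.59 and 7.40 in BRAF BMDC, without overlap. The difference of 1.68 ± 0.40 was the largest rise of any member in this contrast but did not pass (limma, adjusted p = 0.0963); its adjusted p ran from 5.05e-06 with array weights to 0.438. Cd5, an inhibitory receptor of T and some B cells, read 6.43, 6.52 and 6.42 in WT and 7.16, 7.19 and 6.93 in BRAF BMDC, also without overlap (0.64 ± 0.24, adjusted p = 0.589). Cd6, a related scavenger receptor family protein, read 7.03 to 7.52 in WT and 7.35 to 7.79 in BRAF BMDC, which overlap. Cd6 was the member lower in the organs than in BMDC, by -0.92 ± 0.14 log2 (adjusted p = 0.000207). The CD3 chains did not share the BMDC pattern: Cd3e read 6.38 to 6.42 in WT and 6.27, 6.88 and 6.34 in BRAF BMDC.

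Among NK cell genes, Klrk1, which encodes the activating receptor NKG2D, was the member with the smallest adjusted p against BMDC. It read 5.66 to 5.80 log2 in WT and 5.44 to 6.25 in BRAF BMDC. Organ arrays read 6.47 to 8.64, with 8.64 and 8.59 in WT and 8.09 and 8.62 in BRAF lung CD103+ cells, so every organ array lay above every BMDC array. The organs were higher by 2.22 ± 0.23 log2 (adjusted p = 8.74e-06). Unlike the cytotoxic genes, Klrk1 was as high on WT lung CD103+ replicate 3 as on replicate 1. Tbx21, the factor T-bet, was also higher in the organs, by 0.56 ± 0.13 (adjusted p = 0.00785), and read 7.29 and 7.15 in WT against 6.88 and 6.62 in BRAF liver, 6.75 and 6.88 against 6.48 and 6.43 in lung CD11b+ cells and 7.64 and 6.95 against 6.66 and 6.70 in lung CD103+ cells. None of these genotype differences passed. On the deposited values Tbx21 was the only member whose WT arrays lay above the BRAF arrays in all 3 organ populations. That pattern was found in 0.881% of all genes. Tnfrsf17 missed it narrowly, at 5.66 in WT and 5.67 in BRAF lung CD103+ cells, and showed it beside Tbx21 after quantile normalization.

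The cytotoxic genes split the WT lung CD103+ arrays. Nkg7, a granule protein of killer cells, read 11.34 log2 on replicate 1 and 5.69 on replicate 3, against 7.01 and 6.39 in BRAF. Gzmb, a granzyme, read 9.33 and 5.17 against 5.35 and 5.04, and Gzma read 7.54 and 4.72 against 5.31 and 4.64. Eomes, a factor of NK and memory T cells, read 6.48 and 5.11 against 5.10 and 5.08. With both WT arrays the genotype differences were -1.82 ± 1.18 for Nkg7 (adjusted p = 1) and -2.05 ± 0.85 for Gzmb (adjusted p = 0.981). Without WT replicate 3 they were -4.64 (adjusted p = 0.0288) and -4.14 (adjusted p = 0.00222), in a fit where the lone WT array was assumed to vary like the other groups. Without WT replicate 1 the sign turned for both, to 1.01 for Nkg7 and 0.03 for Gzmb (adjusted p = 1 each). Prf1, which encodes perforin, read 6.82 and 6.44 in WT and 6.71 and 6.15 in BRAF lung CD103+ cells, and 6.15 to 7.01 over all arrays. Ncr1, a receptor that marks NK cells, was also higher on WT lung CD103+ replicate 1, at 5.41 against 4.20 on replicate 3 and 4.49 and 4.04 in BRAF. It read as high in WT liver, at 5.56 and 5.29, and exceeded the receptor reference on none of the 18 arrays. Klrb1c, another NK cell receptor, read 4.62 on WT lung CD103+ replicate 1 and 4.71 on replicate 3, and its highest value was 6.58 on BRAF lung CD11b+ replicate 1.

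WT lung CD103+ replicate 1 was also above replicate 3 in the B and plasma cell genes, with a B index of 1.51 against 0.03 and a plasma index of 0.93 against -0.31. Siglech, a marker of plasmacytoid dendritic cells, read 9.61 and 8.19 on the same arrays and 5.96 to 7.75 on all others, and Xcr1 was high on both. The part of other cells in these readings was not tested.

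**Figure D4:**
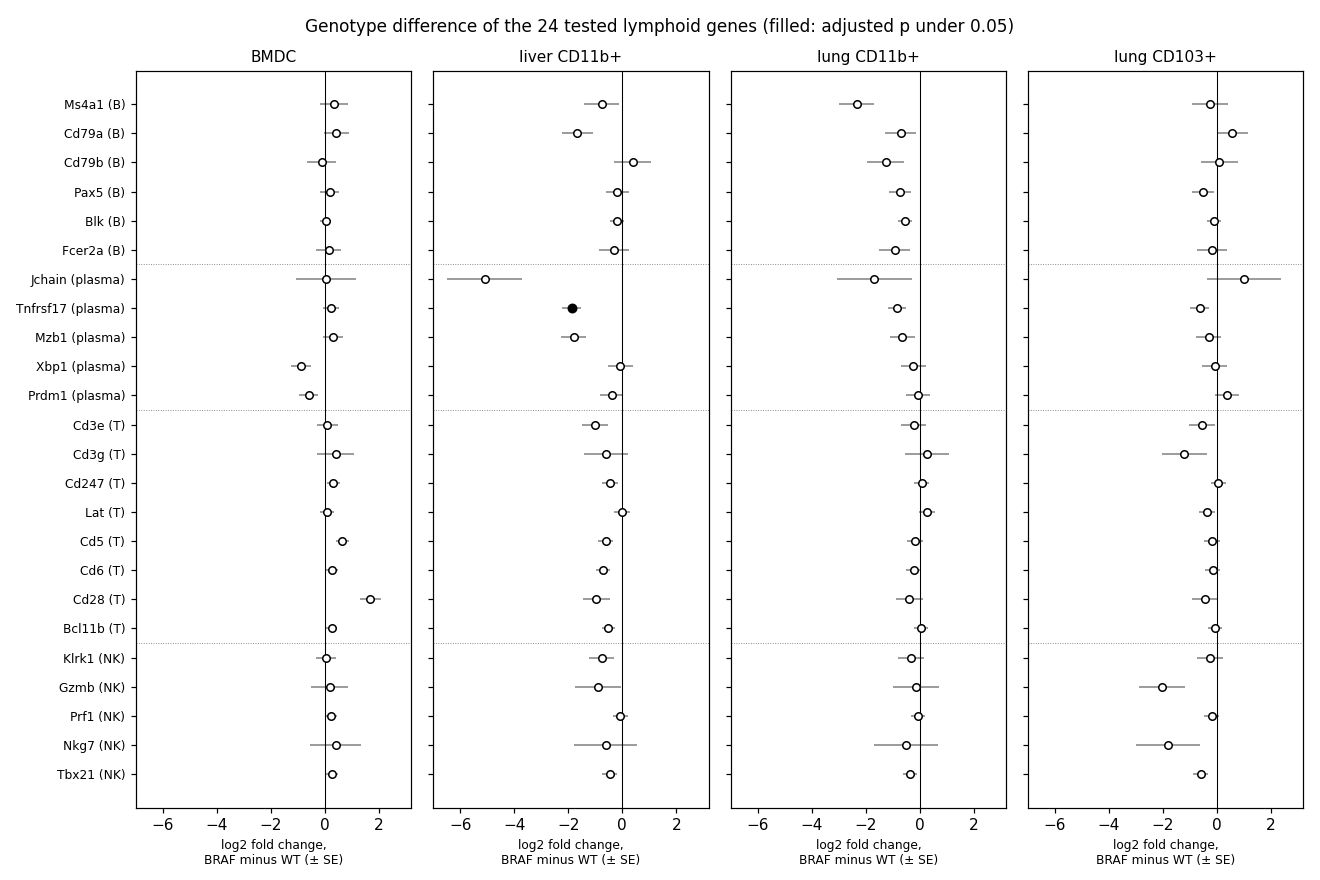
BRAF minus WT difference (x axis, log2, with SE bars) of the tested members, by lineage, in the 4 populations, with filled points where called. Tnfrsf17 in liver (-1.88) is the only one that passed at an adjusted p under 0.05.

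Over the whole set, lymphoid readings were lower on the BRAF arrays of liver. There 1 of 24 tested members was called, Tnfrsf17, where the contrast called 0.215% of all genes, 0.143% higher and 0.0716% lower. Of the 30 measured members 28 were below 0 with a median of -0.50 log2 against 0.00 over all genes, of which 50.4% were below 0. In 15 of the 30 (50%) both BRAF arrays lay below both WT arrays, against 17% of all genes, and in 0 they lay above, against 18.2%. These 15 were Ms4a1, Cd79a, Jchain, Tnfrsf17, Mzb1, the T cell genes Cd3e, Cd3g, Cd247, Cd5, Cd6 and Bcl11b, and the NK genes Ncr1, Klrk1, Gzmb and Tbx21. Among them Ms4a1, Cd3g, Cd247 and Ncr1 exceeded the receptor reference on no liver array. Without WT liver replicate 3, whose low genes read high, 26 of 30 were below 0 with a median of -0.41, and 18 lay below the remaining WT array, against 25.7% of all genes. After quantile normalization, added like the preceding counts after the values were seen, 15 lay below and 1 above, against 18.5% and 15.9% of all genes. In the wider lists, differences were below 0 for 14 of 21 tested B, 9 of 12 plasma, 13 of 17 T and 10 of 13 NK cell genes, and limma called 0 of them. General dendritic cell markers were below 0 in 9 of 10 (median -0.32, 0 called). Those of type 1 were in 5 of 8 (median -0.40) and those of type 2 in 4 of 8 (median -0.30). Macrophage and monocyte markers were above 0 in 5 of 9 (median 0.13). The part of these cells in the lymphoid readings was not tested.

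In lung CD11b+ cells 0 of 24 members were called by limma, with 2 at an unadjusted p under 0.05, where the contrast called 0.338% of all genes (0.0716% higher, 0.267% lower). Array weights and a fit of only these groups each called 1, Ms4a1 (adjusted p = 0.0316 and 0.0352). Both BRAF arrays lay below both WT arrays in 9 of 30 members (30%, against 20.1% of all genes) and above in 2, Lat and Klrb1c (6.67% against 26.2%). The 9 were Ms4a1, Cd79a, Cd79b, Blk, Jchain, Tnfrsf17, Mzb1, Cd28 and Tbx21, of which 7 are B or plasma cell genes. All 7 B cell genes were below 0 with a median of -0.73 log2, and the median became -1.37 when WT replicate 3 was left out and -0.10 when WT replicate 1 was. Dendritic cell markers were lower in the same contrast: 9 of 10 general ones were below 0 (median -0.55, 1 called) and 7 of 8 of type 2 dendritic cells (median -0.82, 0 called). Their mean log2 level was 10.84 to 10.89 in WT and 9.77 to 10.33 in BRAF for the first list, and 10.57 to 10.64 and 9.47 to 10.32 for the second. Their part in the B cell readings was not tested. All 5 plasma cell genes were below 0 as well, with a median of -0.64, while the T and NK medians were 0.04 and -0.09. In the wider B list 15 of 21 tested genes were below 0, with a median of -0.54 and 0 called by limma (10 at an unadjusted p under 0.05).

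In lung CD103+ cells 0 of 24 members were called, with 2 at an unadjusted p under 0.05, and the contrast called 0.0846% of all genes (0.0456% higher, 0.039% lower). In 4 members, Bcl11b, Klrb1c, Eomes and Tbx21, the BRAF arrays lay below the WT arrays (13.3% against 17% of all genes), and in 0 above (10.8%). All 9 NK cell genes were below 0, with a median of -0.61 log2. Leaving out WT replicate 1 brought it to -0.01, and leaving out WT replicate 3 to -1.15. Macrophage and monocyte markers read the other way in this contrast, with 8 of 9 above 0 (median 1.52, 5 at an unadjusted p under 0.05, 0 called) and a mean log2 level of 8.42 to 9.15 in WT and 9.56 to 10.47 in BRAF; their part in the NK readings was not tested. Over the 30 measured members 25 were below 0 with a median of -0.24. Of all genes 59.4% were below 0, with a median of -0.05. Without WT replicate 1, 9 members were below 0 with a median of 0.14, against 53.7% and -0.03 over all genes. The B median turned from -0.12 to 0.50 and the T median from -0.18 to 0.15 when WT replicate 1 was left out.

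In BMDC 0 of 24 members were called, with 3 at an unadjusted p under 0.05, and 0.521% of all genes were (0.332% higher, 0.189% lower). Array weights called 3, Cd28, Cd5 and Prdm1. BRAF arrays lay above WT arrays in 4 of 30 members, Tnfrsf17, Mzb1, Cd5 and Cd28 (13.3% against 7.19% of all genes), and below in 2, Xbp1 and Prdm1 (6.67% against 7.18%). Of the first 4, Tnfrsf17 exceeded the receptor reference on no BMDC array. The median over the 30 was 0.21 log2, with 26 above 0, against 0.07 over all genes, of which 41.2% were below 0. Without BRAF BMDC replicate 2 it was -0.01, with 14 above 0, against -0.01 over all genes, of which 54.1% were below 0. By lineage, the T median was 0.27 and fell to 0.03 without the arrays of narrow spread, and the B and NK medians of 0.17 each became -0.06 and -0.02.

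Averaged over the 4 populations, 29 of the 30 measured members were below 0, with a median of -0.28 log2 against 0.01 over all genes, of which 47.8% were below 0. Without WT lung CD103+ replicate 1 it was 18 of 30 with a median of -0.12, without WT liver replicate 3 it was 26, and without BRAF BMDC replicate 2 it was 28. Tnfrsf17 was the 1 member of 24 called, where 0.989% of all genes were (0.488% higher, 0.501% lower); this mean shares its arrays with the 4 single contrasts. The difference of the BRAF effect between the populations was tested with a moderated F test, which called 0 of 24 members and 0.124% of all genes. At an unadjusted p under 0.05 it found 7, namely Ms4a1, Cd79a, Jchain, Tnfrsf17, Mzb1, Cd5 and Cd28, and array weights called 1 of them, Cd28. Cd28 (adjusted p = 0.264) and Tnfrsf17 (adjusted p = 0.298) were among these, but a difference between populations did not pass. Each had BRAF above WT in BMDC and WT above BRAF in lung CD11b+ cells. However, Tnfrsf17 exceeded the receptor reference on no BMDC array, and Cd28 on only 1 lung CD11b+ array, a WT one.

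Between the lung sorts, B and plasma cell genes read lower and most T and NK cell genes higher in CD103+ than in CD11b+ cells. The contrast called 1 of 24 members, Prdm1, and 5.64% of all genes (2.51% higher, 3.13% lower). Prdm1 was lower in CD103+ cells by -1.43 ± 0.31 log2 (limma, adjusted p = 0.0106), with every CD11b+ array above every CD103+ array. It kept its call in 16 of 20 alternatives and missed the threshold in the other four, at adjusted p from 0.0516 (WT arrays alone) to 0.0699 (without BRAF lung CD103+ replicate 2). The medians were -0.77 for B (7 of 7 below 0), -0.50 for plasma (5 of 5 below 0), 0.48 for NK (8 of 9 above 0) and 0.29 for T cell genes (8 of 9 above 0). The T index was 1.13 on WT lung CD103+ replicate 1 and -0.02 on replicate 3, so the T values lean on 1 array. Over the alternatives Cd3g ran from 0.03 to 1.92, Cd3e from 0.08 to 1.16 and Lat from 0.09 to 0.72. Cd6 varied less, from 0.24 to 0.54. With the replicate number as a block, limma called 3 members, Prdm1, Cd79a (adjusted p = 0.0225) and Cd79b (adjusted p = 0.0286). Whether same-numbered arrays were paired is not known. The NK and B values depended on WT lung CD103+ replicate 1: without it the NK median was -0.15 and the B median -1.27, and Ms4a1 (-1.51, adjusted p = 0.00672), Cd79a (-1.35, adjusted p = 0.0478) and Cd79b (-1.99, adjusted p = 0.0117) passed. Without WT lung CD103+ replicate 3, Cd3g (1.92, adjusted p = 0.00618), Gzmb (1.91, adjusted p = 0.00176) and Nkg7 (2.67, adjusted p = 0.00314) passed instead.

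Genes of the wider lymphoid and plasmacytoid lists were called in both directions between the lung sorts. Of the wider B list, Fcrla, an Fc receptor-like protein of B cells, was higher in CD103+ cells by 3.75 ± 0.21 log2 (adjusted p = 2.13e-08), while Blnk, the adaptor of the B cell receptor, was lower by -2.53 (adjusted p = 7.14e-05), as were Cd72 (-2.03) and Bank1 (-2.12). Of the wider plasma list, Irf4 was lower by -1.62 (adjusted p = 0.0192). Of the T list Tigit, an inhibitory receptor, was higher by 1.24 (adjusted p = 5.88e-05), and of the NK list S1pr5, a receptor for the lipid S1P, was lower by -1.52 (adjusted p = 0.000302). Of the plasmacytoid list Ccr9 and Siglech were higher, by 2.80 (adjusted p = 3.8e-05) and 1.66 (adjusted p = 0.000788). Several of these genes are also used by dendritic cells, so they do not read lymphocytes alone.

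Between liver and lung CD11b+ cells, 0 of 24 members were called by limma, with 6 at an unadjusted p under 0.05, where 2.12% of all genes were called (0.202% higher, 1.91% lower). This contrast shares its lung arrays with the one between the lung sorts. Ms4a1 was nearest, at -1.77 ± 0.46 log2 (adjusted p = 0.0618), and passed after quantile normalization and in a fit of only these groups. All 7 B cell genes were below 0 in liver relative to lung, with a median of -0.27, and all 9 T cell genes above 0, with a median of 0.29. The median over all genes was 0.09, with 40.4% below 0. The T index was 0.65 on WT liver replicate 3, where the olfactory and vomeronasal receptor genes read 0.58. On WT liver replicate 1 the values were 0.64 and 0.15. The T median is not given here without replicate 3. In the wider lists, Blnk was lower in liver by -1.37 (adjusted p = 0.0271), as were the T cell list genes Il7r (-2.80, adjusted p = 0.00196) and Il2ra (-1.67, adjusted p = 0.0235), receptors for the cytokines IL-7 and IL-2.

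In the organs relative to BMDC, called genes of the wider B and NK lists were all higher. The contrast called 7.11% of all genes higher and 11.6% lower. Of 21 tested wider B genes 10 were called higher, among them Bach2 (1.97), a repressor of plasma cell differentiation, and Tnfrsf13c (1.18), the receptor for the B cell survival factor BAFF. Of 13 wider NK genes 5 were called higher, with Klrd1, the CD94 receptor chain, at 3.38. Klrd1 read 5.25 to 5.61 log2 in WT BMDC, 6.36 to 7.68 in BRAF BMDC and 7.28 to 10.77 on the organ arrays. Of 12 wider plasma genes 2 were higher and 4 lower, the latter with Sdc1 (-0.91) and Irf4 (-0.95), and of 17 wider T genes 4 were higher and 2 lower, the latter Il2ra (-2.46) and Il7r (-1.59). In the genotype contrasts the called genes of the wider and plasmacytoid lists were Cox6a2 in BMDC (2.41 ± 0.34, adjusted p = 0.00404) and, in the mean of the 4 populations, Cox6a2 (0.92, adjusted p = 0.0414) and Fcrl5 (1.79 ± 0.37, adjusted p = 0.0312). Fcrl5, an Fc receptor-like protein of B cells, was higher in BRAF, the opposite of the B cell members: it read 10.29 and 6.89 in BRAF and 6.15 and 6.10 in WT lung CD11b+ cells, and 6.73 and 8.59 in BRAF and 5.75 and 5.54 in WT liver.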

How the data were processed

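The authors deposited array intensity on a linear scale, 1 value per probe set, with array medians from 93.7 to 113.2. The sources used here do not say how they were summarised or normalized. RNA was isolated with Trizol and biotin-labelled, per the labels' protocols. Values were put on a log2 scale as deposited, without a pseudocount or further normalization. Of 24922 probe sets, 21425 carried 1 gene symbol in the platform annotation, 1399 several, and 2098 were unlisted; 21347 matched RefSeq genes by Entrez number and 0 symbols changed. Each gene took the probe set of highest mean. The number of arrays limits the precision.

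limma 3.58.1 (R 4.3.3) fitted group means over 18 arrays (10 residual degrees of freedom, prior 4.8); Python 3.11.15 drew the plots. Its p-values were adjusted by Benjamini-Hochberg over 15365 genes and called under 0.05. Errors after log2 differences are standard errors. Medians and overlap counts use all 30 measured members without the filter, and lineage medians carry no test. The fits were checked on simulated data, with normal noise of the same spread on all 18 arrays for a given gene. The real arrays differed, with array weights from 0.11 (BRAF BMDC replicate 2) to 6.03 (WT BMDC replicate 2). The recoveries below may therefore not hold for them. Of changes of 1 log2, the genotype contrast recovered 52% for BMDC and 27% for liver. It recovered 28% for CD11b+ and 35% for CD103+ cells of lung. Changes of 2 log2 were recovered in 97% for BMDC and 85% for each organ sort. False calls were 5.04% to 5.51% of the calls counted in these contrasts. They were 8.74% between lung sorts, 9.39% between liver and lung and 11.4% for organs against BMDC. The calls counted left out genes changed for another contrast. In the contrasts between populations such genes can be truly changed, so the shares there overstate the false share of all calls. A count of 0 called members in an organ thus does not exclude differences of 1 log2.

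The members and lists were chosen with earlier results of these data known. Named genes were the members, Braf, markers of the sorts and, per wider list and contrast, up to 4 called genes of smallest p; the text gives a selection. The wider lists hold other known genes of each lineage and of plasmacytoid dendritic cells.

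Deviations of same-numbered lung CD103+ and CD11b+ arrays from their group means correlated across genes at 0.159 (WT) and 0.22 (BRAF). With 2 arrays per group each genotype gives a single such value, so these cannot establish a pairing. WT and BRAF lung CD103+ replicate 1, which differ in genotype, reached 0.296. The consensus correlation of the random replicate block was -0.0808. The contrast between the lung sorts is also given with the replicate number as a block. In BMDC the numbers did not pair arrays (r = 0.469, -0.231 and -0.399). Alternatives were other scalings, filters, probe set rules, eBayes settings, array weights, fewer groups, replicate blocks and leaving out arrays.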

Additional observations from a re-analysis of the deposited data

How the results depend on the processing

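No called result changed direction. For single members, over all contrasts and alternatives, a call was lost 30 times and gained 64 times, and a difference that was not called changed sign 174 times. Counts of called members were as follows where they moved. In BMDC array weights called 3 in place of 0. In liver, centring on array medians, no filter, the mean of probe sets and array weights each called 0 in place of 1, and the fit without the arrays of narrow spread called 2; leaving out 1 array gave 0 to 2. In lung CD11b+ cells array weights and the fit of only the groups compared called 1 in place of 0, and leaving out 1 array gave 0 each time. In lung CD103+ cells leaving out 1 array gave 0 to 2 in place of 0. In the mean of the 4 populations centring called 0 and the fit without the narrow arrays 2, in place of 1; leaving out 1 array gave 0 to 4. Between lung sorts the replicate block called 3 and WT arrays alone 0, in place of 1; leaving out 1 array gave 0 to 5. Between liver and lung, quantile normalization and the fit of only the groups compared called 1 in place of 0, and leaving out 1 array gave 0 to 2. For organs against BMDC array weights called 17 in place of 8, and leaving out 1 array gave 7 to 14. The F test called 1 in place of 0 with array weights and without the narrow arrays, and 0 to 1 when 1 array was left out. The cause was not tested.

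The replicate block in BMDC left the count of members at 0, and a random block called 9 in place of 8 for organs against BMDC and left the other counts of members as they were. In BMDC the block called 14 of all genes in place of 80. Counts over all genes moved more, from 14 to 1658 in BMDC (80 as reported), 1 to 358 in liver (33), 7 to 369 in lung CD11b+ cells (52), 0 to 96 in lung CD103+ cells (13) and 67 to 324 in the mean (152). For the population contrasts they ran from 576 to 1357 between lung sorts (867), 81 to 1220 between liver and lung (325) and 2184 to 6461 against BMDC (2882), and the F test from 5 to 249 (19). With 2 arrays per organ group, 1 array decides many values.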
